A study of Mus musculus with 6 samples.

Results

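The genes described here are 9 genes of transforming growth factor beta (TGF-beta) signalling, followed through a knockdown of Ggct in a mouse glioblastoma stem cell line. They are the ligand genes Tgfb1, Tgfb2 and Tgfb3, the receptor genes Tgfbr1 and Tgfbr2, the feedback genes Smad7, Skil and Pmepa1, and the target gene Tgfbi. They are 9 of the 22907 genes that the probes of the array name, and were reached through all 15 non-control probes whose transcript accession maps to one of these symbols. The symbols were chosen by their role in the pathway, with the measured differences of Pmepa1 and Tgfbi between knockdown and control already known. The differences of the 9 genes in that contrast are therefore given as a description, with no test.

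Total RNA was profiled on 6 arrays labelled with a single dye, 3 of knockdown cells and 3 of control cells. Knockdown cells carried a stable lentiviral hairpin against Ggct, the gene of gamma-glutamylcyclotransferase, and control cells carried a lentiviral non-target hairpin. Both groups were the same line, made from mouse glioblastomas induced with the SB transposon and kept as neurospheres in serum-free neural stem cell medium with EGF and bFGF. The knockdown rests on 1 hairpin in 1 line, so off-target action of the hairpin and loss of Ggct cannot be told apart. The titles give each replicate a date that 1 knockdown and 1 control sample share. The labels do not say that replicates were separate cultures, so p-values measure only the spread between these samples, which may be technical.

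TGF-beta ligands are secreted in a latent complex and are released by integrins or proteases. The active ligand joins the type II and type I receptors, encoded by Tgfbr2 and Tgfbr1, and the receptor kinases phosphorylate Smad2 and Smad3, which enter the nucleus with Smad4. Their targets include matrix genes and genes that damp the pathway, and in glioblastoma the pathway is known for its part in stem cell maintenance and invasion.

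A value below is the log2 intensity of a probe minus the 75th percentile of its array, called the normalised log2 signal. Signals of different probes are not comparable as amounts of mRNA, so the levels of different genes are not ranked against each other. Between 54.5% and 56.8% of probes per array were well above background, and 0 spots were saturated. Ggct, the targeted gene, had 0.22, 0.91 and 0.70 on the knockdown arrays, against 3.32, 3.72 and 3.70 on the control arrays, and so stood at 12.7% of control (log2 fold change -2.97 ± 0.20, SE; limma adjusted p = 0.00314). On the first principal component knockdown replicate 1 lay farthest out, with a score of 46.6, while knockdown replicates 2 and 3 scored 9.1 and 15.4 and the controls -30.5 to -15. All 6 neural stem cell markers (Sox2, Nes, Prom1, Msi1, Fabp7 and Vim) were well above background on all arrays. In limma 0 of the 6 passed, against 7.41% of all genes. The groups did not overlap for 4 of the 6, against 32.4% of all genes. Of these, Nes (64.1% of control), Sox2 (79.3%) and Msi1 (83.3%) were lower in the knockdown, and Prom1 was 2.05-fold higher. Ptprc, Aif1, Cx3cr1 and C1qa, 4 of 8 microglia and macrophage markers, were well above background on no array, while Itgam, Csf1r and Cd68 were on all 6 and Tyrobp on 1. Of the 3 tested, Itgam, Csf1r and Cd68, 0 passed in limma and 0 had an unadjusted p below 0.05. In bulk RNA, fewer cells of a type and less RNA per cell cannot be told apart.

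Tgfbi and Tgfb2 were the members higher on all 3 knockdown arrays than on any control array. Groups without overlap, in either direction, were found for 32.4% of all genes. The promoters of Tgfbi and Tgfb2 are shown because both were higher, so the choice rests on the measured values. The sequences are RefSeq's on build GRCm38.p6, from 250 bases before to 50 bases after the gene's start, written 5′ to 3′ on the gene's strand. Capitals mark each CAGAC, the SMAD box bound by Smad3 and Smad4, or its reverse complement GTCTG. The Tgfbi promoter lies at chr13:56609336-56609635 on the plus strand and holds SMAD boxes that begin 239 and 85 bases before the start. The Tgfb2 promoter lies at chr1:186705940-186706239 on the minus strand and holds them 221 and 204 bases before the start.
Tgfbi: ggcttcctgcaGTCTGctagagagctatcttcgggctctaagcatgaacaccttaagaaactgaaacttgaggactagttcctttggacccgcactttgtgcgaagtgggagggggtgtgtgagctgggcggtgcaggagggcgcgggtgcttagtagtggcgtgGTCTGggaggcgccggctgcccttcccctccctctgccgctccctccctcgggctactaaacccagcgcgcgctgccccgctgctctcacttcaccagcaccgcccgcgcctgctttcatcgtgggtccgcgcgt
Tgfb2: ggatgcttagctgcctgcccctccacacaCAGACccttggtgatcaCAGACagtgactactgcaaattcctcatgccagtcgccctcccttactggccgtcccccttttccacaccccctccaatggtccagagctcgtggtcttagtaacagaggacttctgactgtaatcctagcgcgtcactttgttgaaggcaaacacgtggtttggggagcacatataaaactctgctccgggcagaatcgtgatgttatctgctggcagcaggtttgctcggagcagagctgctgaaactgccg
Of the 9 genes, 5 matched the promoter table, with 6 entries, and 4 of the 6 entries held a SMAD box. Besides Tgfbi and Tgfb2, these were the Tgfbr2 entry and an entry of Tgfbr1, whose groups overlapped. Pmepa1, Smad7, Skil and Tgfb3 had no entry. On both strands the SMAD box stood in 49.6% of all 32851 promoters of that length, so its presence does not set these genes apart. The AP-1 site TGANTCA, to which c-Jun binds, stood in 0 of the 6 entries and in 7.81% of all promoters. A match is a run of letters and not a measured site.

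The ligand genes differed little between the groups. Tgfb2, which encodes the ligand TGF-beta 2, had 3.38, 3.23 and 3.25 on the knockdown arrays, against 3.05, 2.98 and 3.07 on the control arrays. Every knockdown array was above every control array, by a mean log2 difference of 0.26 ± 0.11 (SE), or 1.20-fold. A second Tgfb2 probe to the same transcript read 1.79, 1.58 and 1.74 on the knockdown arrays, against 1.45, 1.37 and 1.28 on the control arrays. The groups were apart on it too, with a log2 difference of 0.33 ± 0.13 (SE). The Tgfb2 probes thus differed by 1.20-fold and 1.26-fold, and the pair differences of 0.33, 0.26 and 0.19 on the brighter probe had the same sign. Tgfb2 was not past the threshold over all genes.

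Tgfb1, the most widely expressed ligand gene of the family, had -3.05, -3.29 and -3.83 on the knockdown arrays, against -3.82, -3.39 and -3.35 on the control arrays. All control values lay within the range of the knockdown values, with a log2 difference of 0.13 ± 0.22 (SE) and pair differences of 0.76, 0.09 and -0.48 that changed sign. The second Tgfb1 probe was not well above background on any of the 6 arrays. Tgfb3, the third ligand gene, had 2.56, 2.13 and 2.05 on the knockdown arrays, against 2.23, 2.21 and 2.45 on the control arrays. Its highest and lowest values were both in the knockdown, and the log2 difference was -0.05 ± 0.16 (SE).

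The receptor genes overlapped between the groups as well. Tgfbr2, the type II receptor that binds the ligand, had 4.11, 3.53 and 3.60 on the knockdown arrays, against 3.87, 3.70 and 3.89 on the control arrays (log2 difference -0.08 ± 0.17, SE). Knockdown replicate 1 was above all controls and the other knockdown arrays were below them. Tgfbr1, the type I receptor kinase, had 1.09, 0.83 and 0.79 on the knockdown arrays, against 0.90, 0.87 and 1.61 on the control arrays (log2 difference -0.23 ± 0.22, SE). Control replicate 3 alone stood high, and without it the Tgfbr1 difference was 0.02. A dim second Tgfbr1 probe, above background on 2 knockdown and 3 control arrays, spread from -5.67 to -4.0 in the knockdown and from -5.19 to -3.54 in the control.

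Of the feedback genes, Pmepa1 was far lower in the knockdown. Pmepa1 encodes a membrane protein that TGF-beta induces and that keeps Smad2 and Smad3 from the receptor. It had 0.09, 0.95 and 0.28 on the knockdown arrays, against 2.72, 2.88 and 2.85 on the control arrays. All knockdown arrays lay well below all controls, with means of 0.44 ± 0.45 and 2.82 ± 0.09 (SD, n = 3 each), so that Pmepa1 stood at 19.2% of control (log2 difference -2.38 ± 0.22, SE). The pairs differed by -2.63, -1.93 and -2.57. On every array the Pmepa1 signal exceeded the dimmest signal called well above background, by 5.54 log2 units or more, so its low values were measured ones. Among the 14151 genes tested, its difference had rank 3 from the most negative. That difference was known when the genes were chosen, so the rank is a description and lends no support. Pmepa1 and Tgfbi were each read by 1 probe, so no second probe checks either difference.

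The other feedback genes overlapped between the groups. Smad7, the inhibitory Smad that blocks the type I receptor, had -2.18, -2.36 and -2.07 on the knockdown arrays, against -1.93, -2.30 and -1.63 on the control arrays. Each Smad7 pair was lower in the knockdown, at -0.24, -0.06 and -0.44, and the log2 difference was -0.25 ± 0.19 (SE). A second Smad7 probe was not well above background on any array. Skil, which encodes the Smad repressor SnoN, had 1.17, 0.59 and 0.68 on the knockdown arrays, against 0.59, 0.34 and 0.90 on the control arrays. Those Skil values overlapped (log2 difference 0.20 ± 0.21, SE), as did those of the dimmer probes to its other transcripts, at 0.12 ± 0.30 and -0.01 ± 0.56 (SE).

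Tgfbi moved opposite to Pmepa1. It encodes a secreted matrix protein first found as a TGF-beta induced gene, and had 5.19, 4.17 and 4.13 on the knockdown arrays, against 2.75, 2.89 and 3.10 on the control arrays. All knockdown arrays were above all controls, with means of 4.50 ± 0.60 and 2.91 ± 0.17 (SD, n = 3 each), a 2.99-fold difference (log2 1.58 ± 0.28, SE). The pairs differed by 2.43, 1.28 and 1.03. Knockdown replicate 1 was about 1 log2 unit above the other knockdown arrays, and without it the Tgfbi difference was 1.24. With all arrays, the Tgfbi difference had rank 92 from the most positive, likewise a description of a difference known beforehand.

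**Figure D1:**
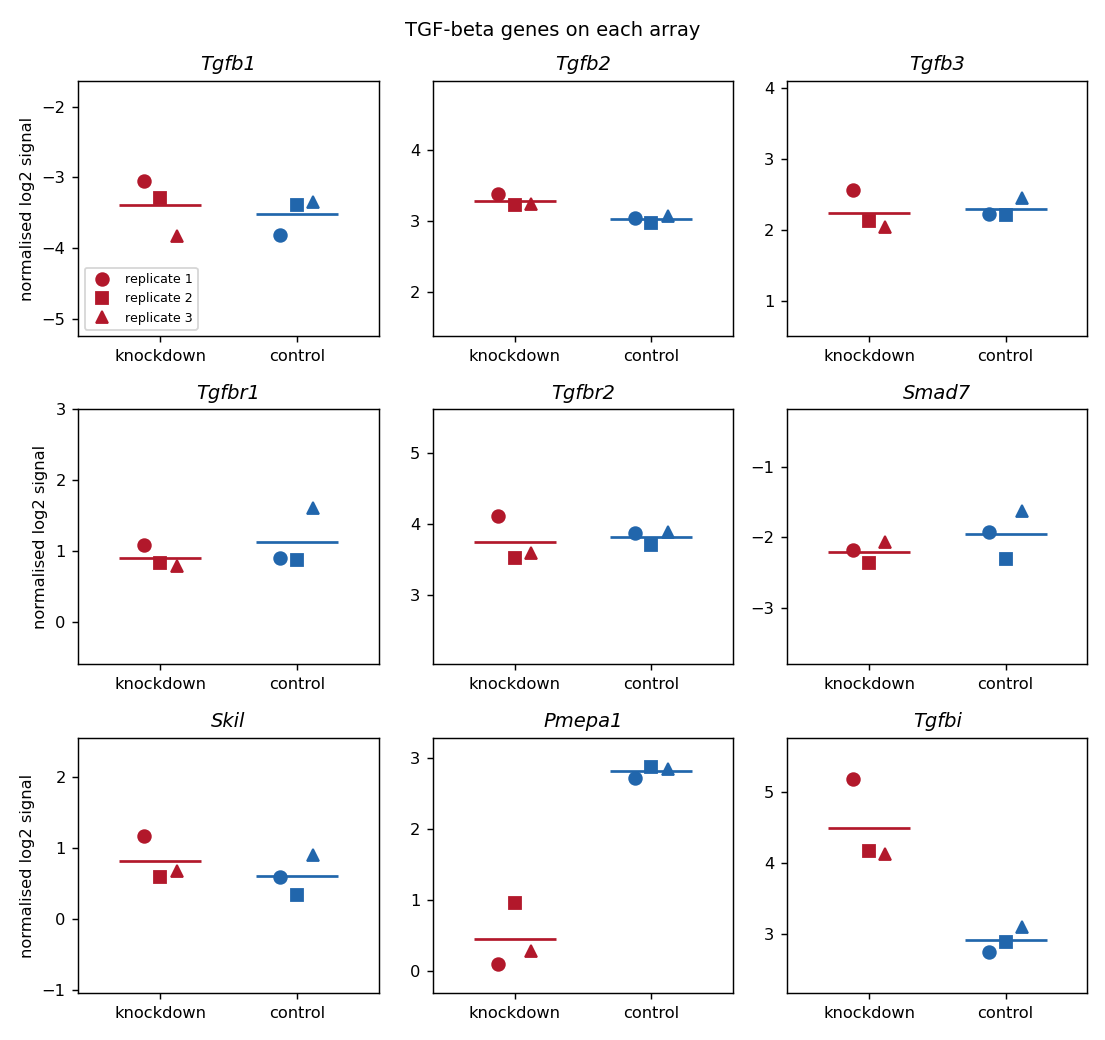
Normalised log2 signal (vertical axis, 3.6 log2 units in every panel) of the 9 genes on the knockdown (red, left) and control arrays (blue, right). A point is an array with its shape giving the replicate, and a line is the mean of 3 arrays. Pmepa1, Tgfbi and Tgfb2 have no overlap between the groups.

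In the fit over all 14151 genes, 2 of the 9 members were past the threshold of an adjusted p below 0.05, against 7.41% of all genes. Of these 1 was higher, Tgfbi, against 4.57% of all genes, and 1 was lower, Pmepa1, against 2.84%. On the probe used, 3 of the 9 members had no overlap between the groups, against 32.4% of all genes. The known differences of Pmepa1 and Tgfbi played a part in the choice of members, so nothing is read from these counts. With the replicate block, which takes each shared date as a pair, 1 of the 9 was past the threshold, Pmepa1. The count was 0 without control replicate 1, and it was 1, Pmepa1, without control replicate 2, control replicate 3 or knockdown replicate 3.

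The sign of the difference held under all 14 alternatives for Pmepa1 (log2 -2.63 to -2.20), Tgfbi (1.24 to 1.76), Tgfb2 (0.21 to 0.30), Smad7 (-0.42 to -0.08) and Skil (0.02 to 0.35). It turned with at least 1 array left out for Tgfb1, Tgfb3, Tgfbr1 and Tgfbr2. The plot of the 9 differences under other processing sets these ranges side by side.

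**Figure D2:**
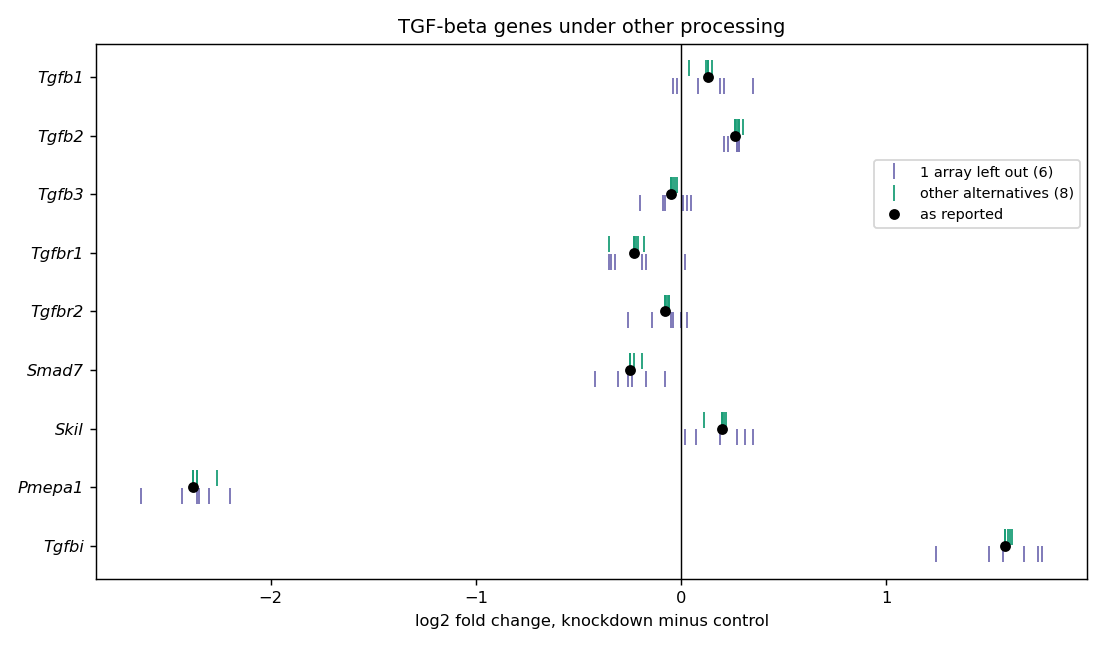
Log2 fold change, knockdown minus control (horizontal axis), of the 9 genes as reported (black), with 1 array left out (purple, 6 values) and under the other alternatives (green, 8 values). Pmepa1 and Tgfbi stay far from 0, from -2.63 to -2.20 and from 1.24 to 1.76, and Tgfb1, Tgfb3, Tgfbr1 and Tgfbr2 cross 0 with an array left out.

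The genes most like Pmepa1 and Tgfbi over the 6 arrays were found by the root mean square difference of values centred on each gene's mean. This is a description of 6 arrays in 2 groups, in which the group difference weighs most. Nearest to Pmepa1 was Thbs1, at 0.30 log2 units, which encodes thrombospondin-1, a matrix protein that can release latent TGF-beta. Thbs1 had 2.24, 2.33 and 1.99 on the knockdown arrays, against 4.22, 4.2 and 4.14 on the control arrays. Next, each at 0.31 log2 units, were the small GTPase gene Rab15 and the glutamate receptor gene Grm6. Grm6 was well above background on 0 knockdown arrays and 3 control arrays, so it passed the filter only through the control group. Its distance to Pmepa1 uses knockdown signals not well above background, so its place as a neighbour is not a measured likeness. Grm6 was at least 1.96-fold lower in the knockdown. The bound sets the dim group at the lowest signal well above background on its arrays, or at its own signal where that was higher. Nearest to Tgfbi were Cmbl, a hydrolase gene, at 0.14 log2 units, and Trim12a and the interferon-induced gene Ifitm1 at 0.16. Cmbl had 1.48, 0.38 and 0.60 on the knockdown arrays, against -0.58, -0.66 and -0.49 on the control arrays, and was highest on knockdown replicate 1 as Tgfbi was. The neighbours were picked for likeness over these same 6 arrays, so the shared highest array is not a separate result.

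**Figure D3:**
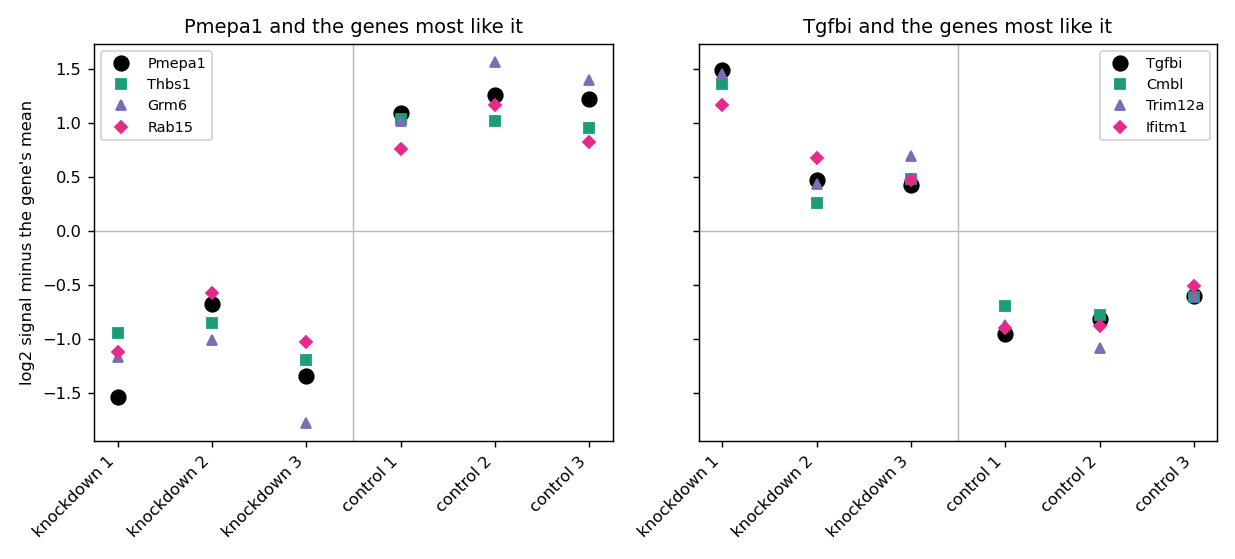
Log2 signal minus the gene's own mean over 6 arrays (vertical axis) on each knockdown and control array, for Pmepa1 (left, black) and Tgfbi (right, black) with the 3 genes nearest to each. Knockdown replicate 1 is the highest array for Tgfbi and its 3 neighbours, which were picked for likeness over these same arrays. The knockdown points of Grm6 were not well above background.

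The rest of the pathway was followed in 6 lists set by role, of which 103 genes were tested and 18 passed, 9 higher and 9 lower. That is 17.5% of the list genes, against 7.41% of all genes, with a median log2 fold change of -0.05 against 0.016 over all genes. At an unadjusted p below 0.05 in limma, 21 of the 103 were higher and 23 lower. Over all 14151 genes, 3507 had such a p in either direction, and the unadjusted counts below stand beside that share. The lists were drawn up with earlier results of these arrays known, so these shares are a description.

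Genes of latency and activation moved both ways. There were 19 tested genes, of which 2 rose and 2 fell, and the median log2 fold change was -0.10. At an unadjusted p below 0.05 in limma, 5 were higher and 6 lower. Thbs1 fell to 25.0% of control (-2.0 ± 0.13 on the log2 scale, SE; limma adjusted p = 0.00314), and passed under all 14 alternatives. Lrrc32, which encodes GARP, the protein that holds latent TGF-beta on the cell surface, had 0.19, -0.89 and -0.57 on the knockdown arrays, against -3.07, -2.62 and -2.04 on the control arrays. It rose 4.45-fold (2.16 ± 0.33, SE; limma adjusted p = 0.016). Fbn2, a fibrillin gene, fell (-0.96 ± 0.20, SE; limma adjusted p = 0.0338), and the protease gene Mmp2 rose (0.83 ± 0.18, SE; limma adjusted p = 0.0388). Ltbp1, a latent TGF-beta binding protein gene, stood at 75.5% of control without overlap (-0.41 ± 0.11, SE; limma adjusted p = 0.0768). Itgav, the integrin subunit that binds latent ligand, had -0.10 ± 0.14 (SE; limma adjusted p = 0.715). Of the other integrin genes in the list, Itgb6 and Itgb8 were not well above background on any array. Itgb5 stood at 75.1% of control without overlap (-0.41 ± 0.16, SE; limma adjusted p = 0.163). Itgb3 overlapped between the groups (-0.26 ± 0.31, SE; limma adjusted p = 0.672). Mmp2 did not pass with any 1 array left out, and of the 6 such fits Fbn2 passed only in that without knockdown replicate 1. The count of 4 was 1, Thbs1, without control replicate 1, control replicate 2 or knockdown replicate 3, and other genes entered it without control replicate 3 (Ltbp2), knockdown replicate 1 (Dcn) or knockdown replicate 2 (Nrros).

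Among other receptors, activin-type ligands and their antagonists, 0 of 15 tested genes rose and 2 fell in limma, with a median of -0.10. At an unadjusted p below 0.05, 3 were higher and 5 lower. Tgfbr3, which encodes betaglycan, the co-receptor that presents TGF-beta 2, had 1.33, 0.80 and 0.68 on the knockdown arrays, against 1.79, 1.72 and 1.83 on the control arrays. It fell to 55.8% of control (-0.84 ± 0.18, SE; limma adjusted p = 0.0368). Under the replicate block its limma adjusted p was 0.0652. Fst, the gene of the activin antagonist follistatin, fell to 48.3% of control (-1.05 ± 0.17, SE; limma adjusted p = 0.0167). The count of 2 was 0 without control replicate 1, control replicate 2 or knockdown replicate 3, 1 (Fst) without control replicate 3 or knockdown replicate 2, and 4 without knockdown replicate 1.

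The Smad and TAK1 signal genes were all tested, 16 in number, and 0 rose and 1 fell in limma, with a median of -0.01. The same counts hold at an unadjusted p below 0.05. Smad2 had 1.86, 1.57 and 1.62 on the knockdown arrays, against 1.42, 1.64 and 1.93 on the control arrays (log2 fold change 0.02 ± 0.16, SE; limma adjusted p = 0.951). Smad3 had 3.38, 2.81 and 2.63 on the knockdown arrays, against 2.71, 2.70 and 2.87 on the control arrays (0.18 ± 0.20, SE; limma adjusted p = 0.635). Both receptor-activated Smad genes thus overlapped between the groups. Map3k7, the gene of the kinase TAK1 that carries the Smad-independent signal, fell (-0.92 ± 0.19, SE; limma adjusted p = 0.0308). Its other probes had -0.43 and -0.31, and with the mean of its probes it did not pass. The fall of Map3k7 was also not past the threshold without control replicate 1, 2 or 3 or knockdown replicate 3.

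Of 14 tested inhibitor genes, 1 rose and 0 fell in limma, with a median of -0.14, and 2 were higher and 2 lower at an unadjusted p below 0.05. Tgif2, which encodes a homeobox repressor that binds Smads, had 3.50, 3.33 and 3.40 on the knockdown arrays, against 2.73, 2.94 and 3.01 on the control arrays. It rose 1.43-fold (0.52 ± 0.13, SE; limma adjusted p = 0.0495), but the replicate block gave a limma adjusted p of 0.103, and Tgif2 did not pass with any 1 array left out. Ski, the relative of Skil, stood at 85.9% of control (-0.22 ± 0.15, SE; limma adjusted p = 0.427). Smad6 was above background on 1 knockdown array and 0 control arrays, and was not tested.

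Response genes also moved both ways, 4 up and 4 down of 33 tested, with a median of -0.03. In limma 7 were higher and 9 lower at an unadjusted p below 0.05. The rises were the collagen genes Col1a2 (1.26 ± 0.19, SE; limma adjusted p = 0.0149) and Col5a2 (0.71 ± 0.15, SE; limma adjusted p = 0.035), the growth factor gene Pdgfb (1.23 ± 0.17, SE; limma adjusted p = 0.0134) and the stress-response gene Gadd45b (0.91 ± 0.12, SE; limma adjusted p = 0.0129). The falls were the matricellular gene Ccn1 (-1.58 ± 0.17, SE; limma adjusted p = 0.00768), Vegfa (-1.09 ± 0.15, SE; limma adjusted p = 0.0134), the chromatin protein gene Hmga2 (-1.06 ± 0.25, SE; limma adjusted p = 0.0477) and the kinase gene Nuak1 (-0.75 ± 0.12, SE; limma adjusted p = 0.0161). Under the replicate block the limma adjusted p was 0.078 for Col5a2 and 0.0624 for Hmga2. With normexp, 2 were higher and 5 lower, and Col1a2 and Pdgfb did not pass, at log2 fold changes of 0.42 and 0.41. The count of 8 was 0 without control replicate 1, and 1 (Ccn1) without control replicate 2 or knockdown replicate 3. Col5a2 also did not pass without control replicate 3 or knockdown replicate 1, nor Hmga2 without control replicate 3.

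Ccn2, a classic target, was not well above background on any array, and the same held for Snai2, Cnn1, Postn and Lox.

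Of genes that TGF-beta is known to repress in many cell types, 2 of 6 tested rose and 0 fell in limma, with a median of 0.61, and 4 were higher and 0 lower at an unadjusted p below 0.05. Both rises were Id genes, inhibitors of helix-loop-helix factors that BMP signals induce. The 4 genes higher at an unadjusted p were Id1, Id2, Id3 and Id4, so the median reflects 1 gene family. The tested genes outside it were not higher. Myc stood at 99.9% of control (limma adjusted p = 0.998) and Cdc25a at 83.6% (limma adjusted p = 0.25). Whether TGF-beta represses the genes of this list in the line used here was not tested. Id3 had 3.62, 3.02 and 2.82 on the knockdown arrays, against 1.94, 1.75 and 1.61 on the control arrays (1.38 ± 0.22, SE; limma adjusted p = 0.0162). Id2 rose 2.23-fold (1.15 ± 0.26, SE; limma adjusted p = 0.0439), and under the replicate block its limma adjusted p was 0.0734. The count of 2 was 0 without control replicate 1, 2 or 3 or knockdown replicate 3.

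**Figure D4:**
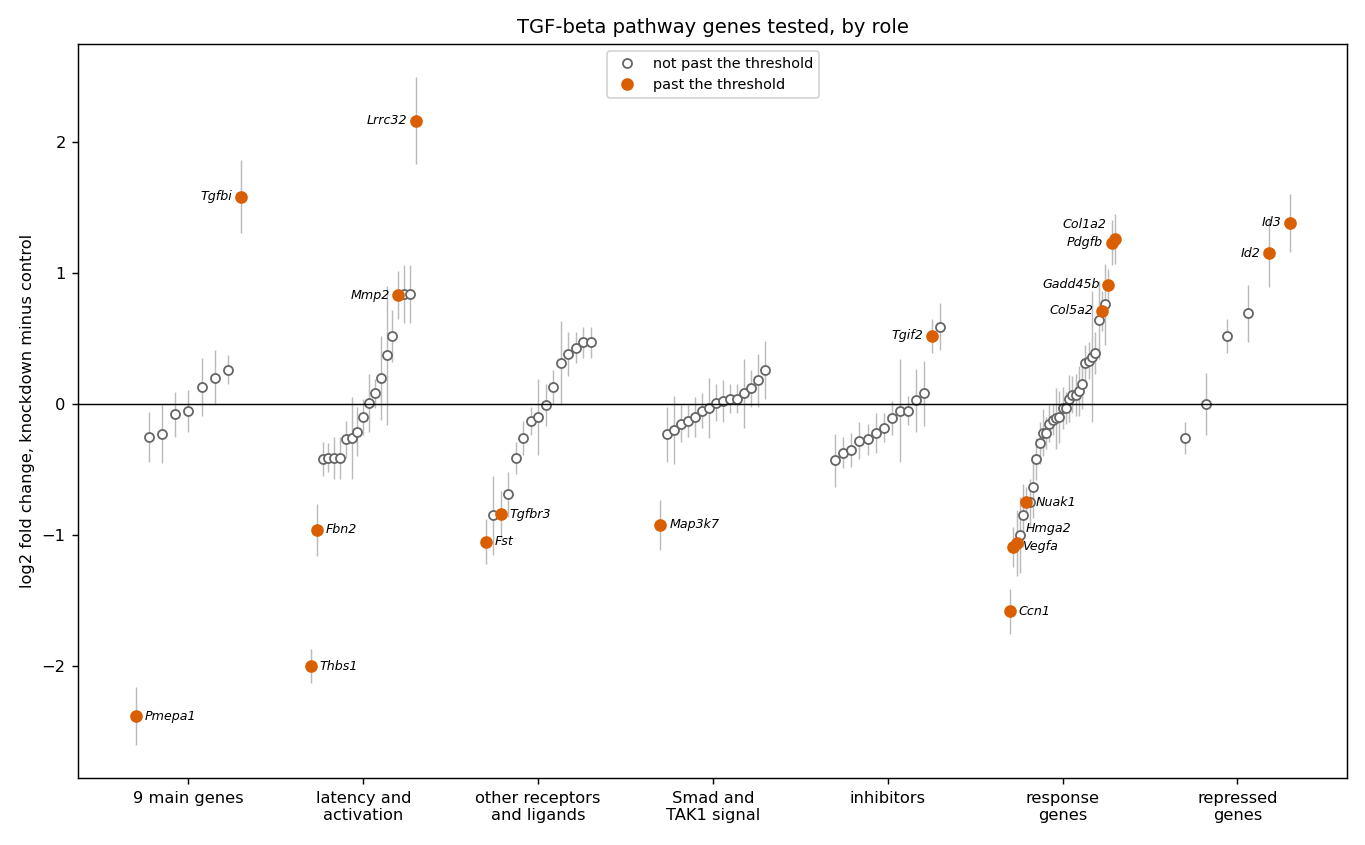
Log2 fold change, knockdown minus control (vertical axis), of every tested gene of the 9 main genes and the 6 pathway lists, grouped by role along the horizontal axis. Bars are SE of the fit, and filled points passed the threshold. Smad and TAK1 signal genes lie near 0 apart from Map3k7, and the response genes spread from -1.58 for Ccn1 to 1.26 for Col1a2.

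Markers of other cell types were set beside these groups. Over all genes, 7.41% passed and 32.4% had no overlap between the groups, and the marker counts and overlaps below stand beside those shares. Of 2 tested endothelial and 4 tested neuron markers, 0 passed in limma. Of 5 tested fibroblast and mural markers, 0 passed in limma and 1 was higher at an unadjusted p below 0.05. Their summed signal, in units of each array's 75th percentile, adds the same probes on every array and is weighted to the brightest, here Col3a1. It ran from 96.4 to 125.0 in the knockdown and from 92.6 to 107.0 in the control. Rgs5, Lum and Kcnj8 were not well above background on any array, and Dcn, Col1a1, Col3a1 and Acta2 also stand in the pathway lists. Of 4 tested astrocyte markers, S100b (1.01 ± 0.20, SE; limma adjusted p = 0.0284) and Slc1a3 (0.86 ± 0.19, SE; limma adjusted p = 0.0399) rose and 0 fell. Aldh1l1 (0.98 ± 0.36, SE; limma adjusted p = 0.142) and Gfap (-0.75 ± 0.83, SE; limma adjusted p = 0.639) did not pass. Gfap, well above background on 2 knockdown and 2 control arrays, thus had the other sign, with groups that overlapped. Under the replicate block Slc1a3 had a limma adjusted p of 0.0652. The summed astrocyte signal, weighted to Slc1a3, ran from 0.472 to 0.669 in the knockdown and from 0.267 to 0.411 in the control, without overlap, and Slc1a2 was not well above background on any array. Of 5 tested oligodendrocyte lineage markers, Mbp rose (1.01 ± 0.19, SE; limma adjusted p = 0.0247) and Pdgfra fell (-0.90 ± 0.12, SE; limma adjusted p = 0.0135). Their summed signal, weighted to Pdgfra, ran from 1.72 to 1.86 in the knockdown and from 2.46 to 2.84 in the control, also without overlap, and Olig2 and Sox10 were well above background on no array. The part of these markers in the differences of Tgfbi, Pmepa1 and the pathway genes was not tested.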

How the data were processed

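Per the file headers, Agilent Feature Extraction 11.0.1.1 gave the deposited spot intensity values, already corrected for background. The authors' deposited value table holds log2 values that differed from the log2 scanner signal by 1 constant per array (tolerance 0.01), with no centring of genes, and its column medians ran from -4.47 to -4.22. All 6 arrays shared 1 slide and 1 scan date, so a slide block was not run. Outlier spots were left out and spots of a probe averaged. Of 56605 non-control probes, 12 were left out, and 32986 (58.3%) were named through RefSeq accessions of GRCm38. Probes well above background on at least 3 arrays were kept, 31804 in all, and each gene was read from its brightest probe. The test of knockdown against control was limma's (version 3.58.1, R 4.3.3; two-sided, Benjamini-Hochberg over 14151 genes, threshold 0.05), after a check on simulated arrays. The number of arrays limits the precision.

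Of the 15 member probes 13 were kept, and all 9 members passed the filter. Members, lists and tests were chosen with earlier results of these data known. The text names the members, Ggct, up to 4 genes per list and direction past the threshold, fixed pathway genes, of which 1 is not reported here, and the 3 genes most like each member past the threshold. Other genes it names to account for a list or its markers were added after values were seen. Pairs come from dates in the titles. Deviations of paired arrays correlated across genes at -0.02, 0.55 and -0.20. Normexp used an offset of 50 on spot medians. Other alternatives were quantile normalization, the percentile over probes detected on all arrays, other filters, the mean of a gene's probes, the deposited table, the replicate block, and each array left out. Python 3.11.15 with pandas 2.3.3 and matplotlib 3.10.9 made the tables and plots.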

Additional observations from a re-analysis of the deposited data

How the results depend on the processing

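Of 14151 genes, 1048 passed, 646 higher and 402 lower. 357 passed without a filter on dim probes, where 22907 genes were tested, 558 with the replicate block, and 14 to 840 with 1 array left out. The lowest counts were 14 without control replicate 1, 21 without knockdown replicate 3 and 42 without control replicate 2, and the cause was not tested. At an unadjusted p below 0.05 limma then gave 2738, 2927 and 2581 genes, against 3507 with all 6 arrays. The count was 424 without control replicate 3 and 626 without knockdown replicate 2. Of the 9 main genes, 2 passed as reported, 1 with the replicate block, 1 with each probe fitted on its own over all kept probes (an alternative chosen after seeing the data), and 0 to 2 with 1 array left out.

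With no filter, 2 latency and activation genes passed, 1 gene of the other receptors, 0 Smad and TAK1 genes and 0 inhibitors, and of the repressed genes 1 was higher (Id3) and 1 lower (Cdh1, well above background on no array), while Id2 did not pass. With the replicate block, 1 gene of the other receptors, 0 inhibitors and 1 repressed gene passed. With the mean of a gene's probes, 0 Smad and TAK1 genes and 0 inhibitors passed. With 1 array left out, the counts were 1 to 4 for latency and activation, 0 to 4 for other receptors, 0 to 1 for Smad and TAK1 signal, 0 for inhibitors, 0 to 9 for response genes and 0 to 2 for repressed genes. Ggct passed under all 14 alternatives, with log2 fold changes from -3.12 to -2.78. Of the member probes used, signal over background limits Tgfb1 most, whose probe lay 1.24 log2 units or more above the lowest signal well above background.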
